A study of Caenorhabditis elegans with 13 samples.

Results

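MicroRNAs of calorie-restricted worms were compared with those of freely fed worms of the same adult age. Small RNA had been sequenced from whole N2 animals, the standard wild-type strain of Caenorhabditis elegans, in a study whose title links dietary restriction to microRNAs and longevity. The calorie restriction (CR) group held 4 libraries, from adult days 4, 6, 8 and 10, and the ad libitum (AL) group held 4 libraries from the same days. Both groups are labelled with the same strain, and 1 library stood for each diet and day. The labels give CR as an abbreviation only and do not describe the feeding protocol, the number of worms pooled or whether libraries came from separate cultures. Another regimen, labelled IF, entered the statistical fit with its 4 libraries of the same days and is not described here. An AL library of day 2 was left out because it has no CR counterpart.

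The miRNAs described were those with 10 or more reads in at least 4 of the 8 CR and AL libraries, which gave 198 of the 434 mature miRNAs listed in the deposited files. Of the others, 160 had reads but too few, and 76 had none. The rule did not use the difference between the diets, although an arm that is scarce in one diet can pass through the other. At its margin, 19 miRNAs reached 10 reads in exactly 4 libraries and 9 in exactly 3, while 141 did so in all 8. The miRNAs outside the rule held no more than 0.0183% of any library's reads. Totals ran from 2882741 to 4000827 reads in CR and from 3174231 to 5143918 reads in AL, so that 3 reads corresponded to between 0.583 and 1.041 CPM, the unit in which each library's counts are brought to 1 common total.

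A miRNA is cut from a hairpin precursor, whose 5p and 3p arms can each give a mature strand of about the same length. The strand loaded into an Argonaute protein pairs with mRNAs through its seed near the 5' end and lowers their output, so miRNAs with the same seed form families with overlapping targets. In worms, the lin-4 and let-7 families time larval development, the mir-35 family is abundant in oocytes and embryos, and the bantam-like mir-58 family acts on growth and body-size signalling. Several miRNAs, among them miR-71, miR-228 and miR-80, have been tied to lifespan or to the response to food.

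Across the 198 miRNAs, CR and AL libraries of the same day were close to each other, and no single miRNA passed the test of a difference common to the 4 days. edgeR's quasi-likelihood test with day as a block called 0 of 198 at an adjusted p under 0.05 (0%), and 10 miRNAs shared the smallest adjusted p of 0.0635. At an unadjusted p under 0.05 there were 38 (19.2%), of which 19 were higher in CR (9.6%) and 19 lower (9.6%). limma-voom also called 0, whereas DESeq2 called 21, 12 higher and 9 lower in CR. The median log2 fold change of CR over AL was 0.03, the median size of a fold change was 0.38 and the median standard error 0.41, so a typical miRNA differed by less than its error. With only 1 library per diet and day, these errors come from the spread left after diet and day in the 12 libraries, IF included. They are partly drawn toward the spread of all miRNAs. Run on counts simulated from the model's own fitted means and spreads, the test called 19 of 20 miRNAs changed by 2 log2 units and 9 of 20 changed by 1. The assumptions of the model hold in such counts, so these figures do not tell how often a change would be called in these libraries. The count of 0 became 10 when the day 4 library of IF was left out, 6 when the day 8 library of CR was left out, and 2 and 1 when the AL library of day 10 or the day 8 library of IF was left out. With total counts in place of trimmed means as the scaling, the median over all 198 stood at 0.49, and edgeR then called 11, all of them higher in CR.

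The days were also compared by direction. Counts of days for single miRNAs, here and below, use log2 ratios after scaling by trimmed means, so they are not free of the scaling. On all 4 days, 31 miRNAs lay above AL in CR (15.7%) and 28 below (14.1%), together 59 of 198 (29.8%). Of the 38 with an unadjusted p under 0.05, 29 were among those 59. After this scaling, every CR library lay above every AL library in 1 miRNA, miR-57-5p (0.505%). Likewise, every CR library lay below every AL library in 1 miRNA, miR-82-3p (0.505%). For the rest the ranges of the diets overlapped.

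The most abundant family, the mir-58 family, took a smaller part of the reads in CR on each day. Its members held 52.3%, 32.0%, 12.9% and 40.9% of the reads of the CR libraries of days 4, 6, 8 and 10, against 69.7%, 45.9%, 30.4% and 52.6% in AL. The 95% Wilson interval of the lowest of these shares ran from 12.9% to 13.0%. Such intervals hold for counting error alone, because PCR copies of a molecule are counted as separate reads. The 4 mir-58 family arms that passed the read filter, of 5 listed, had a median log2 fold change of -0.94, beside 0.03 over all 198. After scaling by trimmed means, each of the 4 lay below AL on 4 of 4 days. By share of reads this did not hold for miR-80-3p on day 4, with 3.135% in CR against 1.625% in AL. Under total counts the family median was -0.48 where that of all miRNAs was 0.49. In worms this family is known to restrain signalling that sets body size and entry into the dauer larva.

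**Figure D1:**
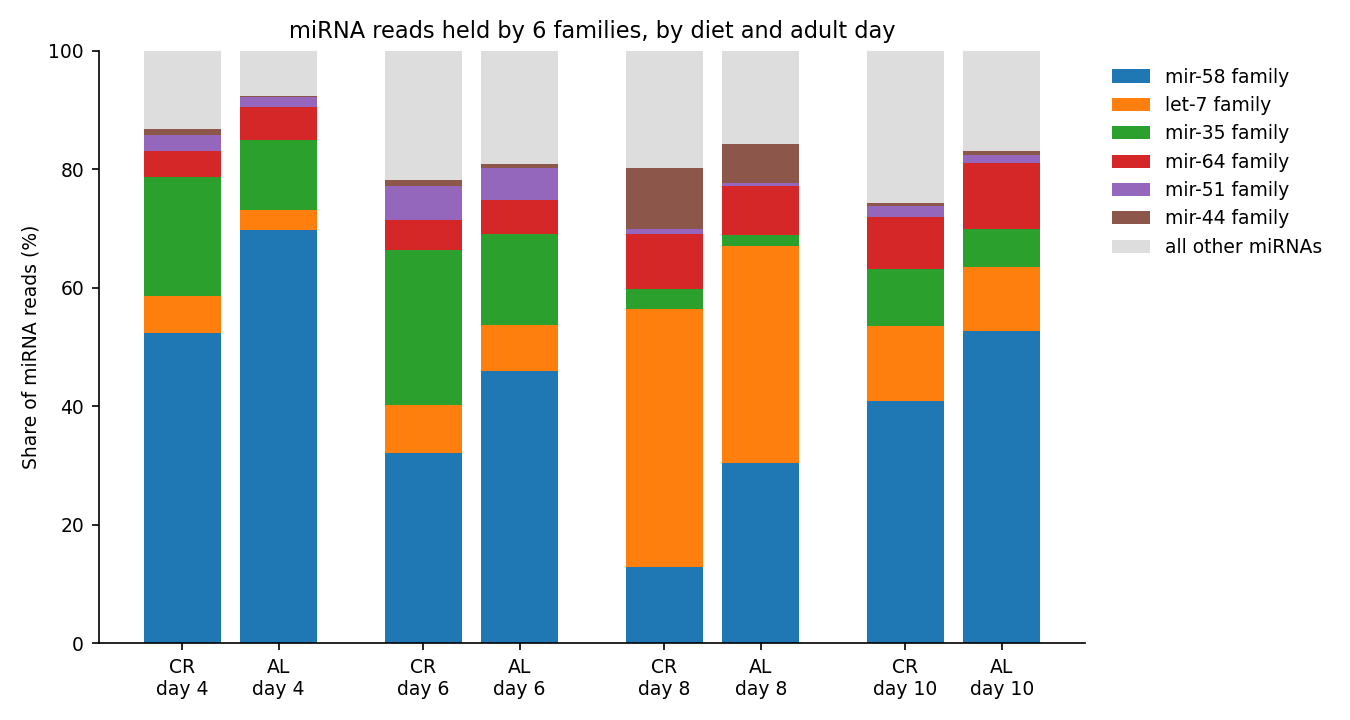
Stacked bars give the percentage of miRNA reads held by 6 families in each CR library and in the AL library beside it, for adult days 4, 6, 8 and 10. The mir-58 family segment is shorter in CR on all 4 days, with 12.9% in CR and 30.4% in AL on day 8, a day on which the let-7 family filled 43.6% of the CR reads and 36.6% of the AL reads.

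Within the family, miR-58a-3p carried most of the reads. Its level was 363400, 129000, 140300 and 365400 scaled CPM (CPM divided by a trimmed-mean factor, so that a miRNA that fills its library can exceed the library's own total) in CR on days 4, 6, 8 and 10, against 1011000, 221300, 418900 and 564300 in AL. CR was lower on every day, although the AL library of day 6 lay below 2 CR libraries of other days. The log2 fold change was -1.11 ± 0.32 (SE; edgeR adjusted p = 0.0635), with values between -1.25 and -0.67 over 28 alternative settings. Its hairpin occupies an intron of Y67D8A.2, on the same strand (chromosome IV, 3233254 to 3233350, WBcel235).

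miR-82-3p, a second mir-58 family member, had 5446, 4652, 1195 and 4525 scaled CPM in CR on days 4, 6, 8 and 10, against 9645, 6636, 6082 and 8461 in AL. In scaled CPM the groups did not overlap, and the gap was widest on day 8. The scaling factors of day 4 were 1.308 for CR and 0.6579 for AL. In CPM before that scaling, CR lay above AL on day 4 and the ranges overlapped. Its log2 fold change was -1.15 ± 0.36 (edgeR adjusted p = 0.0868). miR-80-3p, whose loss has been tied to longer life in worms, was nearly equal on day 4, with 23960 scaled CPM in CR and 24710 in AL, and lay at 31490 in CR against 103600 in AL on day 8. miR-80-3p had -0.77 ± 0.34 on the log2 scale (edgeR adjusted p = 0.231) and miR-81-3p had -0.69 ± 0.33 (edgeR adjusted p = 0.267). The hairpins of mir-81 and mir-82 lie in introns of gid-2 on opposite strands (chromosome X, 2431072 to 2431179 and 2435258 to 2435354), while mir-80 is intergenic on chromosome III (8865270 to 8865367), so the 4 members do not share 1 position. The fifth listed arm, miR-58b-5p, had at most 4 reads in a library.

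Also on the low side in CR on each of the 4 days were miR-77-3p, miR-70-3p, miR-46-3p and miR-75-3p. miR-77-3p had 641, 806, 128 and 1221 scaled CPM in CR on days 4, 6, 8 and 10, against 1465, 3611, 207 and 2084 in AL. Day 8 was the lowest point of both diets, and the ranges overlapped. Its log2 fold change was -1.24 ± 0.36 (edgeR adjusted p = 0.0635), from an intergenic hairpin (chromosome II, 12519268 to 12519367). miR-70-3p averaged 3293 ± 1485 scaled CPM in CR and 7386 ± 4156 in AL (SD, n = 4 days), which gave -1.16 ± 0.43 on the log2 scale (edgeR adjusted p = 0.139). Its gap was -2.10 log2 units on day 4, -0.39 on day 8 and -0.51 on day 10. The mir-46 and mir-75 families each had both members below 0, with family medians of -0.84 and -0.82. miR-46-3p reached -1.05 ± 0.34 (edgeR adjusted p = 0.0935) and miR-75-3p -1.07 ± 0.40 (edgeR adjusted p = 0.139). On day 8 the members of each family lay on both sides of AL, with log2 ratios of -0.19 for miR-46-3p and 0.20 for miR-47-3p, and of -0.18 for miR-75-3p and 0.48 for miR-79-3p. On day 10 all 4 lay below, between -1.93 and -0.73. The last of the 10 miRNAs of smallest p on the low side were scarce. miR-1829b-5p averaged 9.55 ± 6.09 scaled CPM in CR and 31.0 ± 30.8 in AL (SD, n = 4 days), at -1.72 ± 0.58 on the log2 scale (edgeR adjusted p = 0.106). miR-8201-5p, low at a mean of 3.24 scaled CPM, had 3, 1, 2 and 17 reads in CR on days 4, 6, 8 and 10, against 25, 6, 14 and 24 in AL (-2.10 ± 0.60, edgeR adjusted p = 0.0635).

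Among the 10 miRNAs of smallest p on the high side, miR-37-3p, miR-49-3p and miR-57-5p had the most reads while standing above AL on every day. miR-37-3p, a mir-35 family member, had 13740, 22280, 6908 and 27390 scaled CPM in CR on days 4, 6, 8 and 10, against 7014, 7670, 3273 and 10930 in AL. Its ratio was steady, between 0.97 and 1.54 log2 units on the single days, and the log2 fold change was 1.26 ± 0.35 (edgeR adjusted p = 0.0635). The mir-37 hairpin lies opposite to an intron of Y62F5A.9 (chromosome II, 11537833 to 11537930). miR-49-3p, which with miR-83-3p has a miR-29-like seed, had 833, 516, 408 and 3962 scaled CPM in CR, against 281, 147, 284 and 1370 in AL. Day 10 was the highest of both diets, and the day 8 ratio of 0.52 log2 units was the smallest of the 4. Its log2 fold change was 1.43 ± 0.37 (edgeR adjusted p = 0.0635), whereas its seed partner miR-83-3p had -0.07 ± 0.52 (edgeR adjusted p = 0.975).

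miR-57-5p, known in worms for a part in patterning the posterior end of the embryo, was the miRNA whose CR libraries all stood above AL. It had 1271, 2181, 2479 and 2519 scaled CPM in CR on days 4, 6, 8 and 10, against 791, 1017, 1255 and 1134 in AL. The lowest CR value, that of day 4, exceeded the highest AL value, that of day 8, by little. Its log2 fold change was 0.97 ± 0.31 (edgeR adjusted p = 0.0935), and the hairpin is intergenic (chromosome II, 7850499 to 7850597). miR-796, from an intergenic hairpin on chromosome X (1798928 to 1799016), stood higher in CR on 3 days and lower on day 8, with 1910 scaled CPM in CR and 2173 in AL there. Its log2 fold change was 1.27 ± 0.38 (edgeR adjusted p = 0.0746). miR-797-5p and miR-254-3p followed at 1.73 ± 0.51 (edgeR adjusted p = 0.0725) and 1.18 ± 0.40 (edgeR adjusted p = 0.106), both at means under 25 scaled CPM in either diet.

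**Figure D2:**
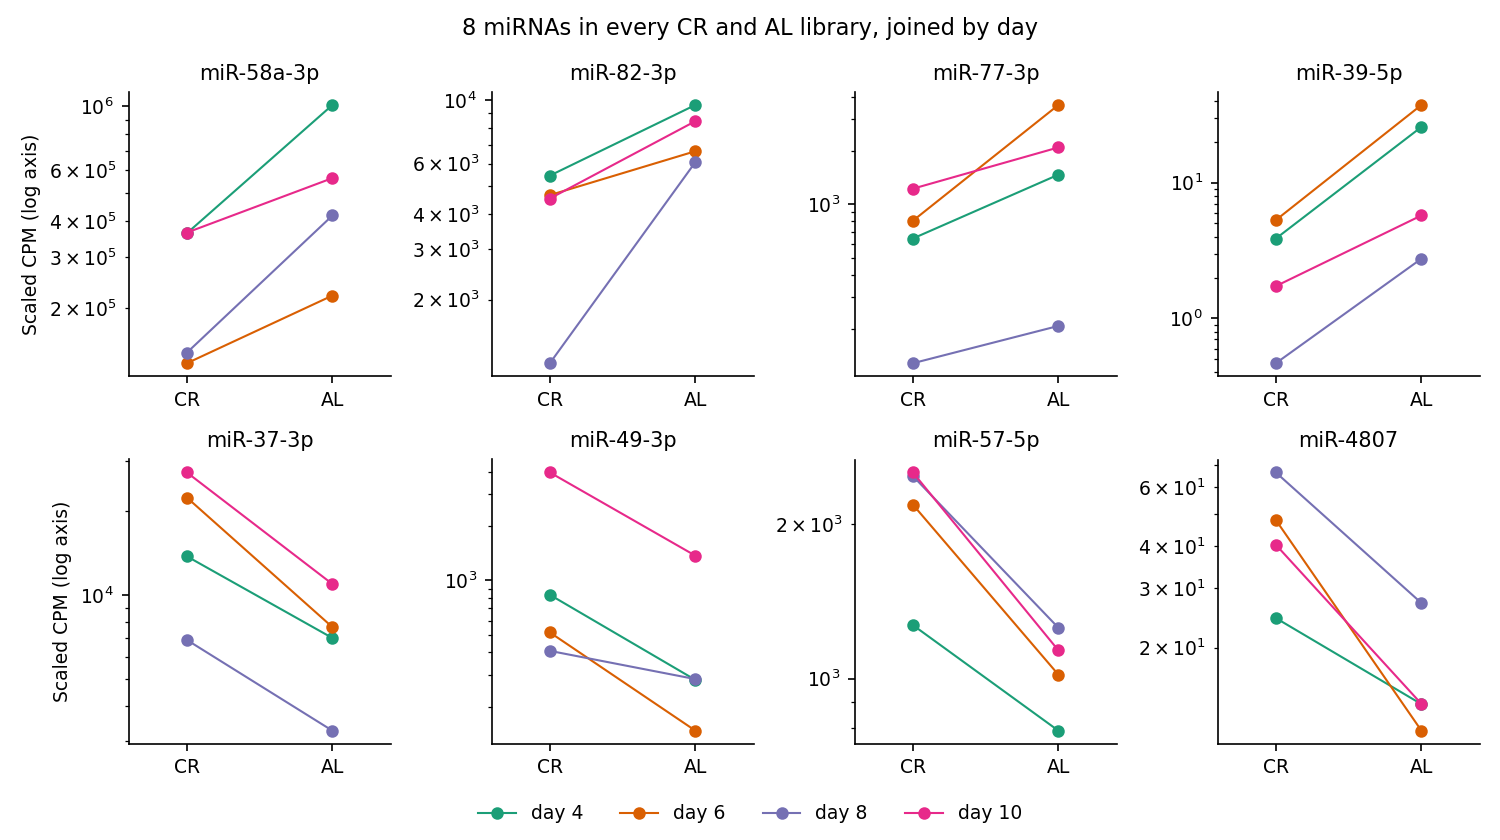
Each panel gives 1 miRNA in scaled CPM on a log axis, with the CR library on the left joined to the AL library of the same adult day on the right; colours mark days 4, 6, 8 and 10. All 4 lines run upwards to AL for miR-58a-3p, miR-82-3p, miR-77-3p and miR-39-5p and downwards for miR-37-3p, miR-49-3p, miR-57-5p and miR-4807, and the span between days is often wider than the step between diets.

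A stretch of chromosome X between positions 1872466 and 1880038 holds 11 intergenic hairpins on the plus strand, and their arms as a group took a larger part of the reads in CR. Over all 11 arms, whether or not they passed the read filter, the share was 0.0302%, 0.0604%, 0.0129% and 0.0538% in CR on days 4, 6, 8 and 10, against 0.00432%, 0.0102%, 0.00698% and 0.0133% in AL. CR was higher on every day, and the CR share of day 8 lay just below the AL share of day 10. The 7 arms that passed the filter had log2 fold changes between 1.48 and 2.09 (median 1.60), all 7 with an unadjusted p under 0.05, beside 9.6% of all miRNAs on that side. Of these, 3 lay above AL on 4 of 4 days (miR-2220-3p, miR-4807 and miR-4923a). Because scarce arms such as these can pass the filter through their CR reads, that count does not stand for the 11.

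miR-2220-3p had 116, 366, 42 and 333 reads in CR on days 4, 6, 8 and 10, against 34, 58, 34 and 87 in AL, or 45.9 ± 29.3 scaled CPM in CR and 14.3 ± 4.58 in AL (SD, n = 4 days). Its log2 fold change was 1.55 ± 0.37 (edgeR adjusted p = 0.0635). For miR-4807 the CR libraries held 24.5, 47.9, 66.4 and 40.5 scaled CPM and the AL libraries 13.6, 11.3, 27.1 and 13.6, which gave 1.48 ± 0.37 at the same adjusted p by edgeR. In both, CR was higher on 4 of 4 days, and 1 CR library lay within the AL range. miR-1018, the arm of the stretch with most reads, had 137, 213, 57.5 and 214 scaled CPM in CR, against 30.7, 28.9, 59.0 and 77.4 in AL. It was equal to AL on day 8 and over 1 log2 unit above it on the other days, with 1.77 ± 0.49 as log2 fold change (edgeR adjusted p = 0.0635). miR-4923a, miR-4923b, miR-4810a and miR-4810b-3p averaged between 3.47 and 6.67 scaled CPM in AL, and their log2 fold changes were 2.09, 1.70, 1.60 and 1.55. miR-4923b lay below AL on day 8, at -0.23 log2 units, miR-4810b-3p on day 4, at -0.31, and miR-4810a on days 4 and 8, at -0.26 and -0.41. Single libraries carried much of these values. Without the CR library of day 10 the log2 fold change was 0.65 for miR-4810a and 0.91 for miR-4810b-3p, and with the AL library of that day left out it was 0.87 and 1.008. For miR-4923b it was 1.014 without the CR library of day 4 and 1.17 with the AL library of day 4 left out. Of the 4 arms outside the filter, miR-4808-3p had 9, 10, 5 and 158 reads in CR against 2, 3, 3 and 29 in AL, and miR-4809-3p had 6, 29, 9 and 30 reads in CR against 2, 2, 5 and 5 in AL. The remaining pair, miR-4921 and miR-4925, had at most 17 reads in a library.

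In the mir-35 family, abundant in oocytes and needed for embryos to develop, the main arms had no common direction of change. In some of its hairpins the ratio of the arms differed between the diets, which was not tested. The family held 20.2%, 26.2%, 3.30% and 9.60% of the reads in CR on days 4, 6, 8 and 10, against 11.8%, 15.4%, 1.84% and 6.46% in AL. The CR share was higher on each day, yet the 3.30% of day 8 lay below 3 of the AL libraries. A higher share was not particular to mir-35. The let-7 family held 6.21%, 8.16%, 43.6% and 12.7% in CR on these days, against 3.44%, 7.88%, 36.6% and 10.9% in AL. The mir-51, mir-50 and mir-2 shares were also higher in CR on each day, while the mir-58 share was lower. The mir-64 share was higher on day 8 only. With total counts as the scaling, 0.49 was the median over the 198, so a typical miRNA also had a larger share in CR. After scaling by trimmed means, the mir-35 family median was 0.09, near that of all miRNAs, with 6 of 8 main arms above 0 and 2 below. miR-37-3p was the only one of the 8 with an unadjusted p under 0.05. miR-35-3p had 0.33 ± 0.31, miR-39-3p 0.47 ± 0.33, miR-36-3p -0.22 ± 0.39 and miR-40-3p -0.39 ± 0.34 on the log2 scale, none of which passed. As these worms were sequenced whole, the number of oocytes or embryos per sample and the level of these miRNAs per cell cannot be told apart.

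The scarce 5p arms of the same hairpins lay on the other side. In 6 mir-35 family hairpins both arms were among the 198, and the 5p arm had a log2 fold change below 0 in all 6. The median was -1.29 beside 0.23 for their 3p arms. Over all 58 hairpins with both arms among the 198, the minor arm lay below 0 in 30. Because scarce 5p arms can pass the filter through their AL reads, the count of 6 does not stand for all 8 hairpins of the family. miR-39-5p had 18, 34, 1 and 7 reads in CR on days 4, 6, 8 and 10, against 87, 168, 7 and 24 in AL, or -2.41 ± 0.62 on the log2 scale (edgeR adjusted p = 0.0635). miR-41-5p had 226, 95, 1172 and 503 reads in CR, against 289, 181, 5187 and 836 in AL, or -1.24 ± 0.34 on the log2 scale (edgeR adjusted p = 0.0635). Both stood lower in CR on every day after scaling, with ranges that overlapped. On day 8 miR-41-5p outnumbered its own 3p arm in both diets, by 1172 to 295 reads in CR and 5187 to 182 reads in AL.

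The ratio of the 2 arms of a hairpin within 1 library needs no scaling between libraries. For mir-37 the log2 ratio of the 5p to the 3p arm, with 0.5 read added to each, differed between CR and AL by -1.79, -3.31, -2.94 and -2.58 on days 4, 6, 8 and 10, a mean of -2.66 ± 0.65 (SD, n = 4 days). For mir-39 the mean was -2.77 ± 0.69 and for mir-41 it was -1.36 ± 1.07, again below 0 on 4 of 4 days. mir-38, mir-35 and mir-42 each had 1 day on the other side, with means of -1.67 ± 1.56, -0.18 ± 1.11 and -0.20 ± 1.27. Over all 58 hairpins with both arms among the 198 the median was 0.08, and the ratio of the minor to the major arm was lower in CR on 4 of 4 days in 7 (12.1%) and higher in 6 (10.3%). Several of these 5p arms had under 10 reads in the later libraries, so counting error is large there, and no test was run on the ratios. In mir-37, mir-39 and mir-41, 1 arm was among the 10 of smallest p on its side for CR against AL. That arm enters the ratio, so these ratios are a description and no separate support.

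**Figure D3:**
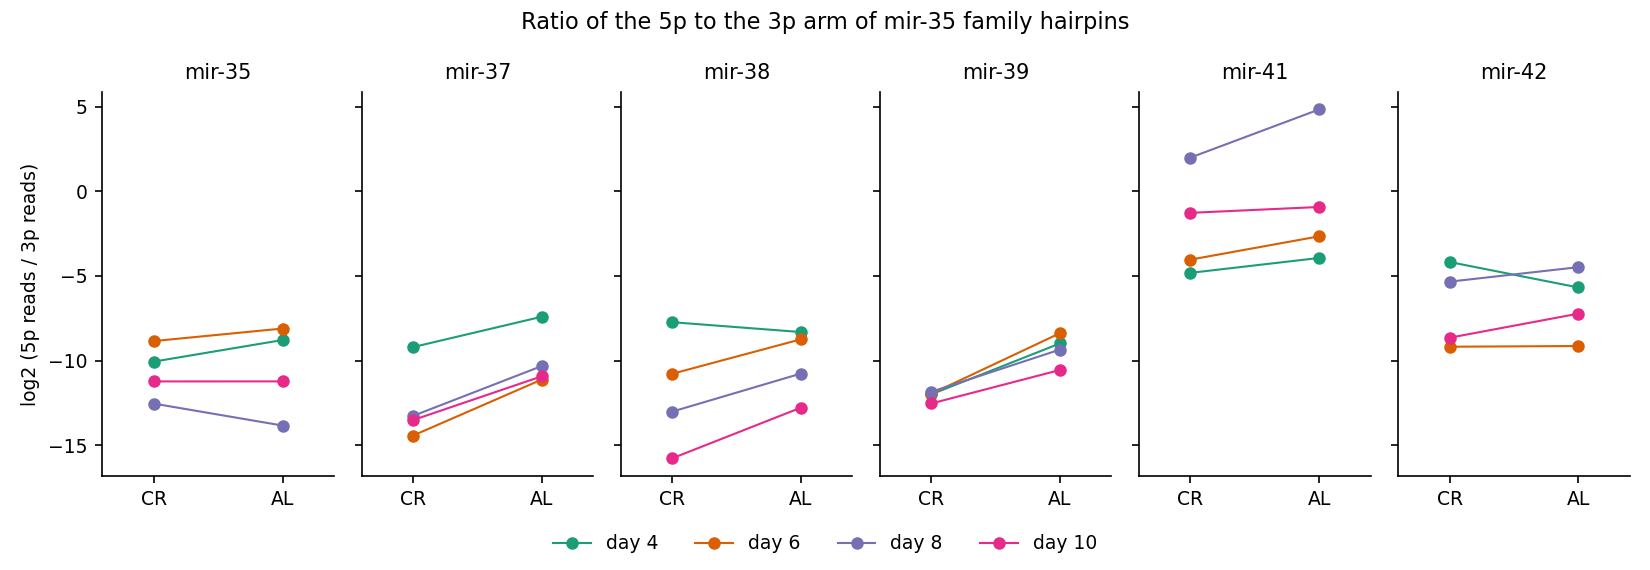
Each panel gives 1 mir-35 family hairpin, with the log2 ratio of its 5p to its 3p reads in the CR library on the left joined to the AL library of the same adult day on the right. All 4 lines run upwards to AL for mir-37, mir-39 and mir-41, while mir-35, mir-38 and mir-42 each have 1 line that runs the other way.

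Among hairpins whose main arm lay low in CR, some had a shift of arms in the other direction. In mir-58a the minor 5p arm stood at 23.8 ± 16.3 scaled CPM in CR and 16.0 ± 7.18 in AL (SD, n = 4 days), so that the log2 ratio of 5p to 3p was higher in CR on 4 of 4 days, by 1.59 ± 0.995 on average. The same held for mir-77 at 1.54 ± 1.17, mir-82 at 1.45 ± 1.26 and mir-70 at 0.95 ± 0.82 (SD, n = 4 days). Their 5p arms had log2 fold changes of 0.49 for miR-58a-5p, 0.33 for miR-77-5p, 0.27 for miR-82-5p and -0.06 for miR-70-5p, none with an unadjusted p under 0.05. In mir-75 and mir-46, named by the same rule, the ratio was higher in CR on 3 of 4 days, with means of 1.52 ± 1.37 and 0.95 ± 1.15. Other hairpins with a low main arm had means near or below 0, such as mir-238 at -0.08 ± 1.26, mir-243 at -0.06 ± 0.52 and mir-74 at -0.47 ± 1.02. The main arm that chose these hairpins enters the ratio, so the ratios are given as a description.

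Other families kept closer to the median of all miRNAs. Among 7 let-7 family arms, the median was -0.01 and the values ran from -0.79 for miR-48-5p to 0.58 for miR-84-5p. miR-48-5p had 10900, 20190, 526800 and 46410 scaled CPM in CR on days 4, 6, 8 and 10, against 33180, 39830, 580600 and 59590 in AL. After scaling it was lower in CR on 4 of 4 days, most on day 4, at -0.79 ± 0.33 (edgeR adjusted p = 0.202). Its share of reads on day 8 was higher in CR, at 39.09% against 33.31% in AL. let-7-5p was also lower on 4 of 4 days after scaling, though not by share of reads on day 4. It had 1362 ± 216 scaled CPM in CR and 2288 ± 661 in AL (SD, n = 4 days), at -0.70 ± 0.36 (edgeR adjusted p = 0.309). miR-84-5p and miR-795-5p were higher on 4 of 4 days, so members of 1 family stood on both sides. The lin-4 pair had a median of -0.12.

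The mir-51 family, which acts in development and cell attachment, had 5 of 6 arms above 0 and a median of 0.11. The mir-64 family had all 4 arms below 0, at a median of -0.40, but at 0.06 under total counts. For the mir-238 family, which holds stress-responsive miRNAs, the median was -0.52 with 3 of 3 below 0. Its day medians were -1.53 and -0.72 on days 4 and 6 and 0.27 and 0.23 on days 8 and 10. Medians of the mir-50, mir-2 and mir-72 families were 0.13, 0.16 and 0.16, and that of the mir-87 family was -0.04, or 0.38 under total counts. The let-7 and lin-4 medians likewise became 0.45 and 0.33 under total counts, close to the 0.49 of all miRNAs. The mir-232 pair was split, with miR-357-3p at 0.70 and miR-232-3p at -0.80, and so was the mir-240 pair, with miR-240-5p at 0.57 and miR-786-3p at -0.08. miR-252-5p, the member of the mir-251 family that passed the read filter, was lower on 4 of 4 days at -0.76 ± 0.34 (edgeR adjusted p = 0.231). Of the mirtrons, hairpins made by splicing, miR-62 had 0.13 and miR-1020-3p -0.02, and miR-1018, which stands in this list, is also part of the chromosome X stretch, where its hairpin lies outside every annotated protein-coding gene.

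**Figure D4:**
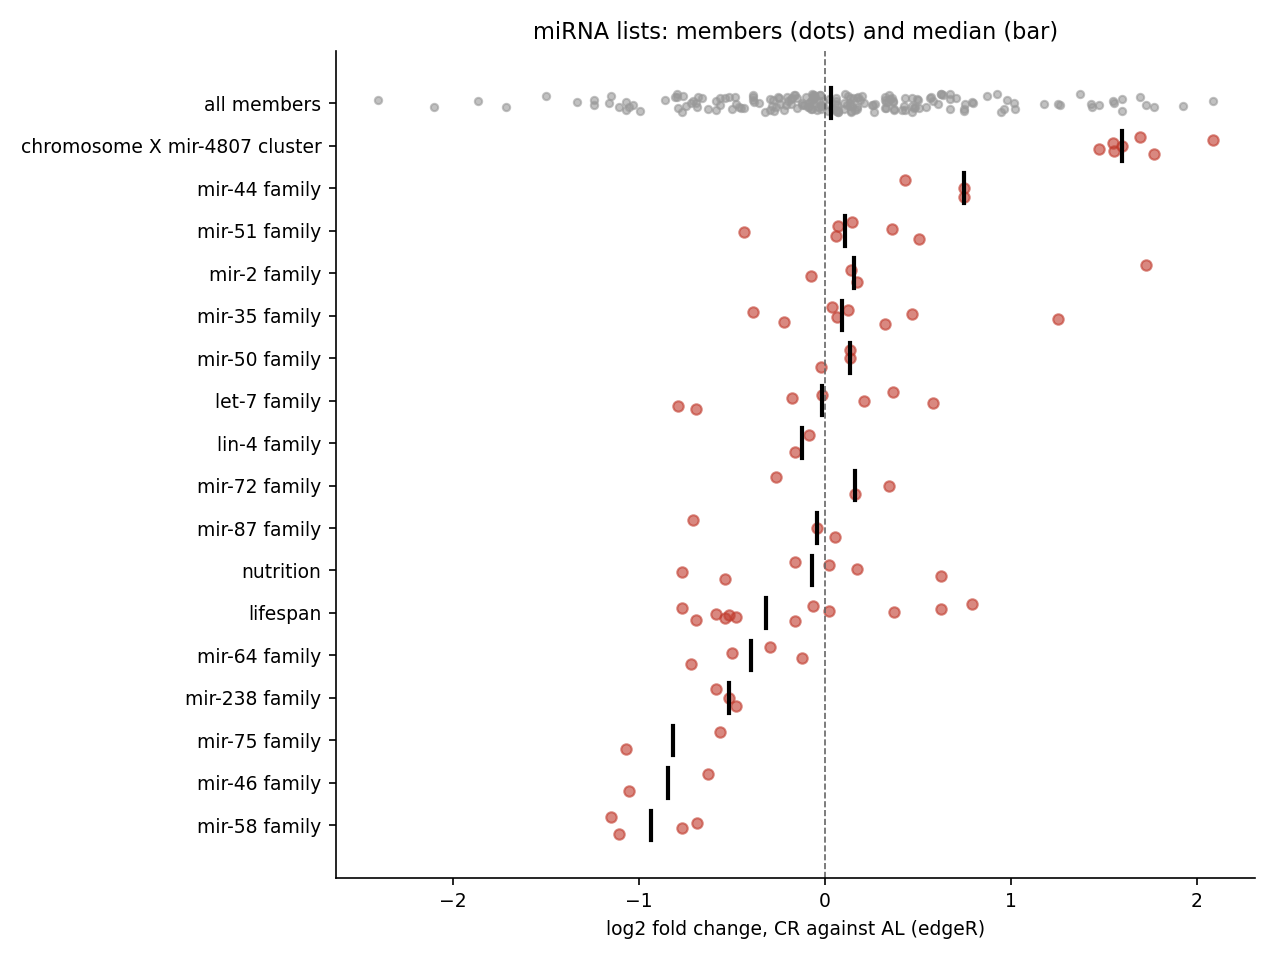
Dots give the edgeR log2 fold change of CR over AL for each miRNA of a list and bars the list's median, with all 198 miRNAs in the top row. The chromosome X stretch lies furthest to the right, at a median of 1.60, and the mir-58 family furthest to the left, at -0.94, while the median of all miRNAs is 0.03.

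Of 12 miRNAs with a reported lifespan phenotype in worms, 4 had values above 0 and 8 below, none passed, and miR-80-3p was the one with an unadjusted p under 0.05. Their median was -0.32, or 0.15 under total counts. miR-71-5p, which promotes long life and has been placed in dietary restriction, had 9272, 4319, 6552 and 1529 scaled CPM in CR on days 4, 6, 8 and 10, against 5947, 13040, 12310 and 3152 in AL. It was higher on day 4 and lower on the other 3 days, at -0.54 ± 0.61 (edgeR adjusted p = 0.744). Its value was -1.56 with the day 4 library of CR left out and 0.05 with that of day 6 left out. miR-228-5p, another miRNA placed in dietary restriction and abundant in glia, had 22920, 49580, 43590 and 89480 scaled CPM in CR, against 10820, 18620, 43010 and 77020 in AL. It was over 2-fold higher on days 4 and 6 and nearly equal on days 8 and 10, at 0.63 ± 0.38 (edgeR adjusted p = 0.423). miR-34-5p had 0.02 ± 0.37, miR-246-3p 0.37 ± 0.35 and miR-239b-5p -0.59 ± 0.39. Among the 6 miRNAs linked to nutrition the median was -0.07, or 0.41 under total counts. miR-235-3p, which holds starved larvae in quiescence, had 0.18 ± 0.39, with day ratios of -0.43, -0.57, 0.67 and 0.83 on days 4, 6, 8 and 10.

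Markers of the tissues in a whole worm were present in both diets. Intestinal miR-60-3p had 295 ± 306 scaled CPM in CR and 362 ± 301 in AL (SD, n = 4 days), with a fold change of -0.38 ± 0.35 on the log2 scale, or 0.04 under total counts. Muscle miR-1-3p stood at 0.43 ± 0.51, but its sign depended on day 10, where its ratio was 2.36. The value was -0.37 without the CR library of that day and -0.01 with the AL one left out, and it reached 0.90 without the CR library of day 6. The neuronal miR-791-3p and miR-124-5p, with 11 to 170 reads in every library, had 0.67 ± 0.46 and 0.79 ± 0.41, above AL on 4 of 4 days. The other arm of mir-124 went the other way. With 0 to 25 reads in a library, miR-124-3p had -0.12 ± 0.54 and lay below AL on 3 of 4 days. lsy-6-3p, which sets the fate of a single pair of sensory neurons, had 4 to 10 reads in every library and did not pass the filter. No marker passed edgeR's test of a common difference, and the part of tissue makeup in the differences above was not tested.

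Single days differed in how far CR stood from AL. The SD of the log2 ratios of the 198 miRNAs was 1.15, 1.02, 0.84 and 0.88 on days 4, 6, 8 and 10, each from 1 library of each diet. More than 2-fold above AL were 30, 29, 18 and 28 miRNAs on days 4, 6, 8 and 10, and more than 2-fold below were 35, 25, 17 and 16. The ratios of days 4 and 6 went together across miRNAs, with Pearson r = 0.64, while those of day 4 had r = 0.10 with day 8 and r = 0.03 with day 10. Days 6 and 10 had r = 0.36 and days 8 and 10 r = 0.28. The days share no library, and miRNAs are not independent replicates, so these values only describe the 8 libraries. Each CR library was most like the AL library of its own day, with r between 0.96 and 0.98 on the log2 CPM of the 198.

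Whether the CR minus AL difference drifted with adult day was tested with a slope in the same model, and 8 of 198 miRNAs passed at an edgeR adjusted p under 0.05 (4.04%), 4 with a difference that climbed (2.02%) and 4 with one that declined (2.02%). At an unadjusted p under 0.05 there were 33 (16.7%). miR-236-3p, the worm relative of the miR-8 and miR-200 family, had 220, 369, 7935 and 169 scaled CPM in CR on days 4, 6, 8 and 10, against 4013, 2538, 4117 and 185 in AL. CR was far below AL on the first 2 days, above it on day 8 and about equal on day 10, and the difference climbed daily by 0.80 ± 0.16 log2 units (edgeR adjusted p = 0.000302). miR-1-3p, which acts in muscle, had 7385, 6577, 84250 and 24490 scaled CPM in CR, against 12450, 8591, 78410 and 4782 in AL. Its difference climbed by 0.50 ± 0.13 per day (edgeR adjusted p = 0.0102), with the largest ratio, 2.36 log2 units, on day 10. Without the CR library of day 10 the slope of miR-1-3p was 0.14.

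miR-44-3p and miR-45-3p, 2 hairpins of chromosome II (11890023 to 11890118 and 11880944 to 11881039) with practically the same counts, so that they form 1 signal, had 2838, 1619, 66300 and 1389 scaled CPM in CR on days 4, 6, 8 and 10, against 525, 458, 55610 and 2685 in AL. CR was over 3-fold above AL on days 4 and 6, nearly level on day 8 and below on day 10. The difference declined, at -0.59 ± 0.14 per day for each name (edgeR adjusted p = 0.00198). The other 4 miRNAs past the threshold were scarcer. miR-65-3p and miR-55-5p, minor arms at means of 5.95 and 4.58 scaled CPM over the 8 libraries, declined at -0.80 ± 0.21 and -0.92 ± 0.24 per day (edgeR adjusted p = 0.00764 each). miR-4810a of the chromosome X stretch, at 9.10 scaled CPM, climbed by 0.69 ± 0.20 (edgeR adjusted p = 0.0211). miR-238-5p, named after its value was seen, had 32.9, 14.5, 48.2 and 119 scaled CPM in CR, against 181, 35.8, 27.9 and 91.5 in AL, and climbed by 0.51 ± 0.15 (edgeR adjusted p = 0.0256). Just outside the threshold, miR-55-3p had 0.44 ± 0.14 (edgeR adjusted p = 0.0515), opposite in sign to its 5p arm.

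The calls of a drift rested on few libraries. By edgeR none passed when the day 4 library of AL or all of day 4 was left out (20 and 14 at an unadjusted p under 0.05), and miR-1-3p alone passed when the day 4 library of CR was left out. With the day 10 library of AL or all of day 10 left out, miR-236-3p alone passed. miR-44-3p and miR-45-3p alone passed with the day 6 library of AL, or the day 6 or day 10 library of IF, left out. The count was 3 with the day 8 library of AL left out, and 5 with the day 6 or the day 10 library of CR left out, against 8 with all libraries. Without the pairing by day, that is with no block, 0 of 198 passed, and 0 had an unadjusted p under 0.05. The 8 slopes kept their sign in every alternative in which they could be fitted.

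**Figure D5:**
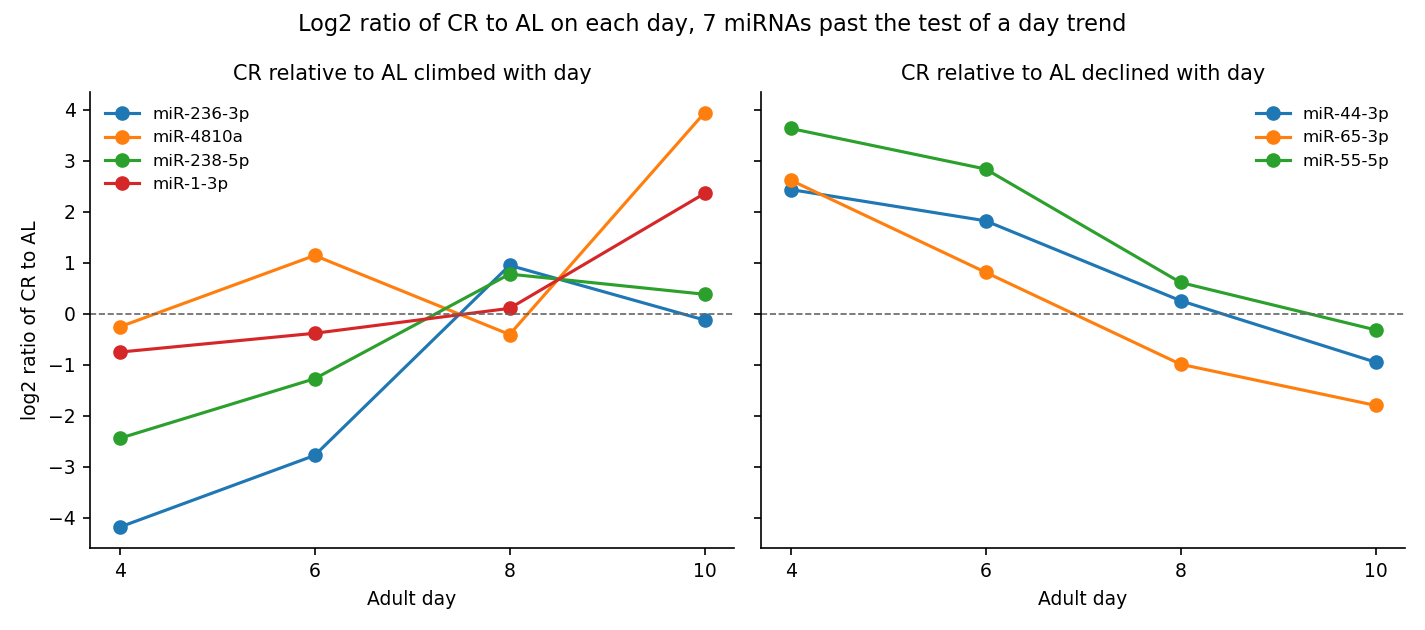
Lines give the log2 ratio of CR to AL on adult days 4, 6, 8 and 10 for 7 of the 8 miRNAs past the test of a drift, with those that climbed on the left and those that declined on the right; miR-45-3p overlies miR-44-3p and is not drawn. The line of miR-236-3p lies at -4.19 on day 4 and 0.95 on day 8, and that of miR-44-3p at 2.43 on day 4 and -0.95 on day 10.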

How the data were processed

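Per the file headers, the deposited tables list a read count, not normalized, for each of 447 pairs of mature miRNA and precursor. Per the labels' protocols, a 6% gel was used to take RNA of 18 to 30 nt, which went into libraries with an Illumina small RNA kit, version 1.5. Aligner, counter, genome build and use of strand: not given in the sources used here. Entries of 1 mature name were collapsed to the highest count, which removed at most 0.219% of a library's reads. Precursor positions come from the WBcel235 annotation of Ensembl release 115 (247 of 250 names matched, let-7 not among them). Intergenic means outside protein-coding genes, other genes not having been checked.

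Counts were fitted with edgeR 4.0.16 in R 4.3.3: trimmed mean of M values (TMM) scaling, quasi-likelihood tests, diet and day as factors, on the 12 CR, AL and IF libraries of days 4 to 10, which share 1 estimate of the spread (6 residual degrees of freedom). The drift model added a CR-by-day-number term, the one tested, and an IF-by-day-number term. It left 4 residual degrees of freedom, beside a prior of 124 (9.708 in the first model). The drift p-values therefore rest mostly on a spread pooled over all miRNAs. Tests were two-sided with Benjamini-Hochberg adjustment over 198 miRNAs. SE is the fold change over the square root of F. p-values measure the spread between these libraries, which may be technical. Per-day ratios used a prior count of 2. Tests were checked on counts simulated from each model's own fit: 13 of 20 slopes of 0.6 and 4 of 20 of 0.3 log2 units per day were called. Alternatives used DESeq2 1.42.0 and limma 3.58.1; tables and plots used Python 3.11.15 (matplotlib 3.10.9, scipy 1.17.1, numpy 2.4.6, pandas 2.3.3).

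Day was kept as a block since the replicate number in the labels stands for the day: after removing diet means, CR and AL libraries of 1 day correlated at 0.715 to 0.876 (4 pairs), those of different days at -0.591 to 0.282 (12 pairs). Removing diet means pushes the values of different days down where those of the same day are high, so part of this contrast is built in. Named miRNAs were the 10 of smallest p on each side, list members, the 10 of highest mean CPM, other arms of the first, and the 5 of smallest p for the drift; other names were chosen after their values were seen. The miRNAs described and the lists were chosen with earlier results of these data known. No mature sequence is printed.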

Additional observations from a re-analysis of the deposited data

Results flagged for a closer look

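For 8 miRNAs the CR minus AL difference passed the edgeR test of a CR-by-day term, which is a test of the difference between days. With 1 library per diet and day, a change of the CR effect cannot be told apart from variation between libraries. None passed with the day 4 library of AL left out. The slopes of CR minus AL per day were 0.796 log2 units for miR-236-3p, 0.694 for miR-4810a, 0.512 for miR-238-5p and 0.496 for miR-1-3p, and -0.916 for miR-55-5p, -0.800 for miR-65-3p, and -0.587 for miR-44-3p and for miR-45-3p, which carry the same reads. Over the alternative settings in which each could be fitted, miR-236-3p, miR-44-3p and miR-45-3p each passed in 20 of 27, miR-65-3p in 14 of 26, miR-55-5p in 12 of 26, miR-1-3p in 11 of 27, and miR-238-5p and miR-4810a in 8 of 27 and 8 of 26. The slope of miR-4810a came down to 0.06 with day 10 left out.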

How the results depend on the processing

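Against 0 of 198 for CR against AL, DESeq2 called 21 (12 higher, 9 lower), edgeR with DESeq2's size factors 6, with total counts 11 and with total counts without the top 3 miRNAs 2. Without the low-count filter it called 23 of 358, with a filter of 100 reads 2 of 113, on the 8 CR and AL libraries alone 5, and at an adjusted p under 0.10 it called 15. Leaving out single libraries gave 0 to 10. The count stayed at 0 in the other settings run, among them limma-voom, the filter over 12 libraries, summed precursors and each day left out, and without pairing by day (no replicate block), where 4 had an unadjusted p under 0.05. For the drift with adult day, 8 were called, and 5 with total counts, 3 without the top 3 miRNAs, 0 with no replicate block, 5 on the 8 libraries alone, 0 to 11 with single libraries left out, 0 with day 4 left out and 1 with day 10 left out. DESeq2, limma-voom and DESeq2's size factors gave 8 each, 7 of them shared. The cause of these moves was not tested. The 10 miRNAs of smallest p on each side, picked by the main fit, kept their direction in each alternative. Scarce arms with under 10 reads are limited by counting error.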

Other observations

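Outside the lists and the naming rule, and therefore chosen after their values were seen, 3 further miRNAs with an unadjusted p under 0.05 lay above AL in CR on 4 of 4 days at means above 20 scaled CPM: miR-790-5p (log2 fold change 1.02), miR-1819-3p (0.95) and miR-72-3p (0.80). miR-790-5p had 77.0 ± 26.1 scaled CPM in CR and 40.7 ± 21.95 in AL (SD, n = 4 days). On the other side miR-5592-3p, at a mean of 694 scaled CPM over the 8 libraries, had -0.81 and lay below AL on 4 of 4 days. Besides the hairpins described above, the minor arm lost ground to the major one in CR on 4 of 4 days in mir-230, mir-52, mir-56 and mir-84, by -1.07 ± 1.18, -0.46 ± 0.44, -0.32 ± 0.17 and -0.72 ± 0.56 log2 units (SD, n = 4 days), and the ratio was higher in CR on 4 of 4 days in mir-788 and mir-2, by 1.92 ± 0.89 and 0.47 ± 0.68.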
